A study of Mus musculus with 12 samples.

Results

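Class II myosins are the two-headed motors that pull on actin filaments, and their heavy chain carries the motor itself. The genes described here are the 7 class II heavy chain genes other than the 6 main skeletal forms: *Myh9*, *Myh10* and *Myh14*, which encode the nonmuscle chains IIA, IIB and IIC, *Myh11*, the smooth muscle chain, and *Myh6*, *Myh7b* and *Myh13*, striated muscle chains that are rare in limb muscle. They were chosen by name and not by any measured value, though earlier results of these data were known. They are 7 of the 55450 genes of the count table. The count table covers 12 RNA-seq libraries of tibialis anterior (TA) muscle, 4 from embryos at E18.5, 4 from pups of 2 wks and 4 from young adults of 7 wks. All 3 groups were WT mice of the 129Pas genetic background (129SvPas in the methods), with no allele or treatment that sets them apart other than age. Libraries were made from TA pieces with a stranded mRNA kit, so that each library holds fibers, vessels, nerve and connective tissue together. In such bulk samples, fewer cells of a type and less RNA per cell cannot be told apart. The libraries of an age came from separate mice, as the study describes them, and p-values set differences between ages against the spread between these libraries.

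Nonmuscle myosin II assembles into short bipolar filaments that drive cell division, migration and cortical tension in nearly every cell type, including myoblasts. The smooth muscle chain powers the contraction of vessel walls and is the classical marker of mature vascular smooth muscle. Of the striated chains, *Myh6* encodes the alpha-cardiac chain of the heart, *Myh7b* an ancient slow-type chain whose transcript carries a muscle microRNA, and *Myh13* the superfast chain of extraocular and laryngeal muscles. Coordinates are those of RefSeq on GRCm38.p6, the assembly of the mm10 build that the submitters' processing notes name. *Myh9* lies at chr15:77760585-77842175 on the minus strand, *Myh10* at chr11:68691915-68816626 on the plus strand and *Myh14* at chr7:44605803-44670872 on the minus strand. *Myh11* lies at chr16:14194527-14292188 on the minus strand. *Myh6* lies at chr14:54941921-54968017 on the minus strand, *Myh7b* at chr2:155611243-155634307 on the plus strand, and *Myh13* at chr11:67327103-67371587 on the plus strand.

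The libraries held 63018968 to 123449246 counted reads each. The 20 most abundant genes took 13.7 to 16.1% of them at E18.5, 33.2 to 35.6% at 2 wks, then 36.4 to 37.8% at 7 wks. Levels are therefore given as CPM, read counts scaled to library size, after the trimmed mean of M-values correction (TMM CPM), and the scaling matters: without it, the median log2 change of all genes tested between E18.5 and 2 wks was -1.02 in place of -0.09. All 7 genes passed the filter on low counts, and the library groups of a gene are said to overlap where the lowest of the higher age is below the highest of the lower age. The smallest count of any of them in a library was 130, for *Myh14* at E18.5. Of the 12 libraries, E18.5 replicate 2 had the highest E18.5 value for 6 of the 7 genes, all but *Myh11*, and for 13 of the 18 gene list sums used below, and calls that rest on it are named with their values.

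Between E18.5 and 2 wks, *Myh14*, *Myh13*, *Myh9* and *Myh11* rose and *Myh10* and *Myh7b* fell. Thus 6 of the 7 genes passed the edgeR test (adjusted p under 0.05), beside 65.7% of all 19276 genes tested, so that change by itself does not set these genes apart. The 4 that rose stand beside 31.5% of all genes and the 2 that fell beside 34.2%, and the median log2 change of the 7 was 1.40 beside -0.09 for all genes. The same 6 had libraries that did not overlap between these ages, beside 61.3% of all genes, with 4 higher beside 28.9% and 2 lower beside 32.4%. From 2 to 7 wks only *Myh9* passed the test among the 7, falling, beside 27.5% of all genes in either direction and 13.9% lower, and the median log2 change of the 7 was -0.53 beside -0.03 for all genes. Libraries of these ages did not overlap for *Myh9* and *Myh7b*, both lower, beside 33.7% of all genes in either direction and 16.4% lower. The count that passed is 4 with total counts in place of TMM and 0 without 2 weeks replicate 3. Between E18.5 and 7 wks all 7 passed the test beside 71.4% of all genes, 4 higher beside 34.3% and 3 lower beside 37.1%. For 5 of them the libraries did not overlap, beside 63.4% of all genes, with 3 higher beside 30.2% and 2 lower beside 33.3%. The change of slope between the intervals was tested on its own, and it passed for *Myh9*, *Myh11*, *Myh13* and *Myh14*, beside 38.4% of all genes.

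**Figure D1:**
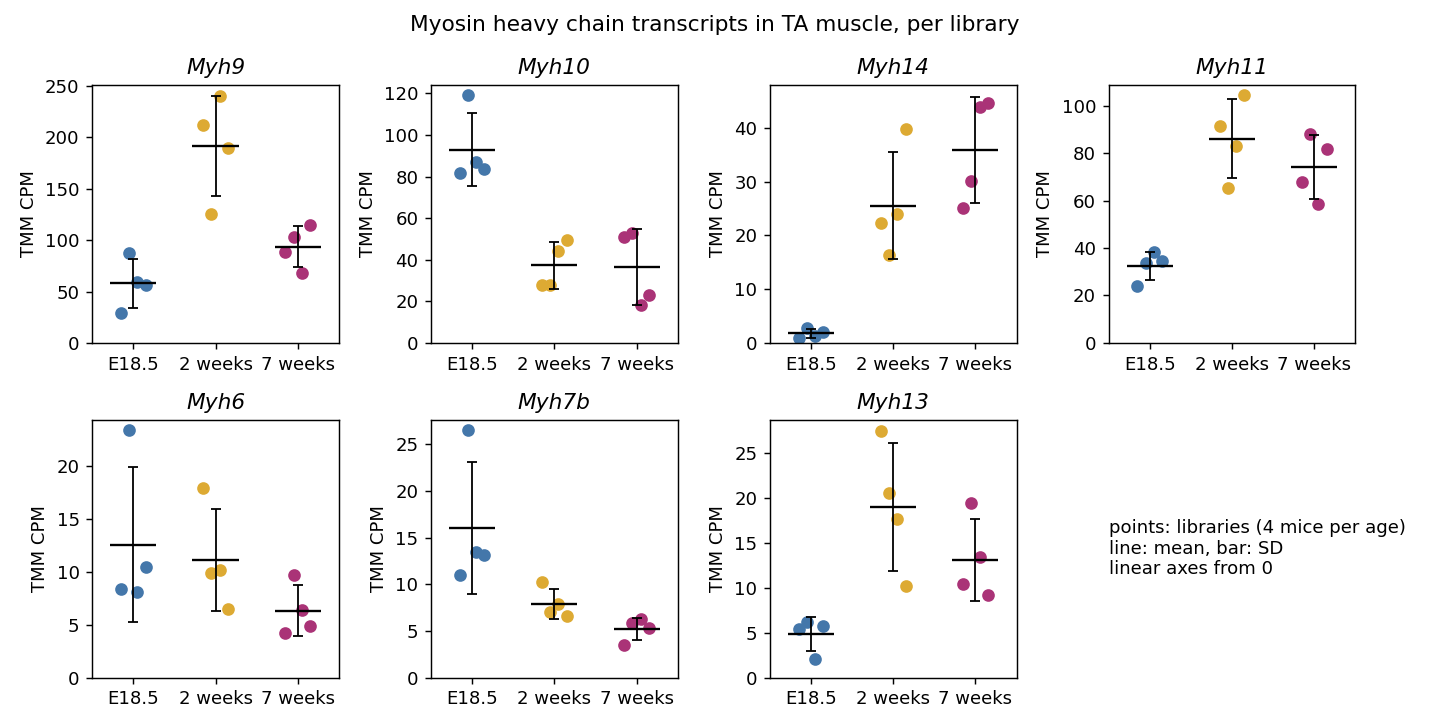
TMM CPM (linear axes from 0) of the 7 genes in each of the 12 libraries by age; points are libraries, lines are means and bars SD (n = 4). *Myh9*, *Myh11*, *Myh13* and *Myh14* sit higher at 2 wks than at E18.5 with no overlap, *Myh10* and *Myh7b* sit lower with no overlap, and *Myh6* overlaps.

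*Myh9* encodes nonmuscle heavy chain IIA, the most widespread of the nonmuscle chains and abundant in endothelium, fibroblasts and blood cells. Its TMM CPM was 28.8, 87.4, 59.4 and 56.2 in the E18.5 libraries, 212, 126, 240 and 190 at 2 wks, and 88.4, 103, 68.2 and 115 at 7 wks. The 2 wks libraries were all above those of both other ages, while E18.5 and 7 wks overlapped. Scaled to total counts alone, E18.5 replicate 2 (144 CPM) was above 2 weeks replicate 2 (116), and the means were 96.8 and 167. The level rose from 57.9 ± 23.9 (SD, n = 4) to 192 ± 48.7 at 2 wks, a log2 fold change of 1.73 ± 0.30 (SE, edgeR adjusted p = 0.000179). It then fell to 93.5 ± 19.99, by 1.04 ± 0.29 on the log2 scale (edgeR adjusted p = 0.0176; exact permutation p = 0.0286, the smallest that 4 libraries against 4 allow). Without 2 weeks replicate 3, the highest, the second change was -0.91 and did not pass (edgeR adjusted p = 0.0514). The rise and the fall differed from each other by -2.76 ± 0.48 on the log2 scale (edgeR adjusted p = 0.000906). *Myh9* thus peaked at 2 wks. Over the whole span the call is fragile: the log2 change from E18.5 to 7 wks was 0.69 (edgeR adjusted p = 0.0450), but -0.59 with total counts (adjusted p = 0.0728) and near 0 once the trend with transcript GC content was removed from each library.

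*Myh10* encodes nonmuscle heavy chain IIB, the chain prominent in embryonic tissues, brain and heart. Its TMM CPM was 82.0, 119, 87.2 and 83.6 at E18.5, 28, 27.8, 44.1 and 49.7 at 2 wks, and 51.1, 53.1, 18.46 and 22.9 at 7 wks. Every E18.5 library was above every later library. The level fell by 1.31 ± 0.32 on the log2 scale by 2 wks (edgeR adjusted p = 0.00273), from 93.0 ± 17.5 to 37.4 ± 11.2. At 7 wks it averaged 36.4 ± 18.2, a log2 change of -0.04 ± 0.32 from 2 wks (edgeR adjusted p = 0.942). The 7 wks libraries did not form a tight group: replicates 1 and 2 were above all 2 wks libraries, and replicates 3 and 4 below them all. The same split was seen in 10 of the 18 gene list sums, where replicates 1 and 2 were both above replicates 3 and 4. Among them, the fibroblast list summed to 4177, 1752, 1354 and 1017 TMM CPM and the smooth muscle list to 1599.5, 1694, 1249 and 1274 in the order of the replicates. Most of the smooth muscle sum was *Synpo2*, a gene that striated muscle expresses too, and the other 9 genes summed to 248 to 333. *Myh11*, at 67.7, 88.2, 58.6 and 81.9 in these libraries, did not split in this way. The part of these lists in the split was not tested.

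*Myh14* encodes nonmuscle heavy chain IIC, a chain of epithelia, nerve and adult tissues including skeletal muscle. Its libraries held 0.90, 2.81, 1.31 and 2.0 TMM CPM at E18.5, 22.2, 16.3, 23.9 and 39.7 at 2 wks, and 25.1, 30.1, 43.9 and 44.6 at 7 wks. The lowest later library stood far above the highest E18.5 library, and the 2 wks and 7 wks libraries overlapped. *Myh14* rose 14.5-fold by 2 wks (log2 fold change 3.86 ± 0.38, edgeR adjusted p = 1.75e-06), the largest change of the 7 genes. From 2 to 7 wks its log2 change was 0.49 ± 0.33 (edgeR adjusted p = 0.292), with the 7 wks library higher in 14 of 16 pairs. The size of the rise depended on the scaling: total counts gave 2.91, and removal of the GC trend gave 2.49, under which the second change passed as well (0.89, edgeR adjusted p = 0.00510). The *Myh14* transcript has the highest GC content of the 7, at 60.3%, while *Myh10* has the lowest, at 51.1%.

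Set against each other within a library, the nonmuscle chains changed places. A scaling factor of the library does not alter their shares, since the genes of a library have it in common, whereas a correction by each gene's GC content would. Reads per kb of coding length were summed over *Myh9*, *Myh10* and *Myh14* in each library. In the E18.5 libraries *Myh10* made up 56.5 to 73.1% of the sum, in the 2 wks libraries 10.6 to 17.7%, and in the 7 wks libraries 12.5 to 30.8%. The share of *Myh9* was 26.1 to 42.2%, 68.4 to 81.2% and 52.9 to 63.5% at the same ages. *Myh14* made up 0.792 to 1.38%, then 7.56 to 13.9%, then 14.97 to 33.0%. Per coding length IIB was thus the leading nonmuscle transcript in all 4 E18.5 libraries and IIA in all 8 later ones, and the share of IIC at 7 wks lay above that at 2 wks in every library. Per kb of merged exons, which lowers *Myh9*, *Myh10* made up 62.5 to 77.7% at E18.5 and *Myh9* led in the later libraries except 7 weeks replicate 3, where *Myh14* took 45.5% and *Myh9* 40.4%. At 7 wks *Myh14* then made up 22.2 to 45.5%, beside 12.4 to 21.5% at 2 wks. For each read of *Myh9* there were 1.34 to 2.80 of *Myh10* per coding length before birth, 0.130 to 0.258 at 2 wks and 0.197 to 0.569 at 7 wks. These shares are descriptions with no test.

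**Figure D2:**
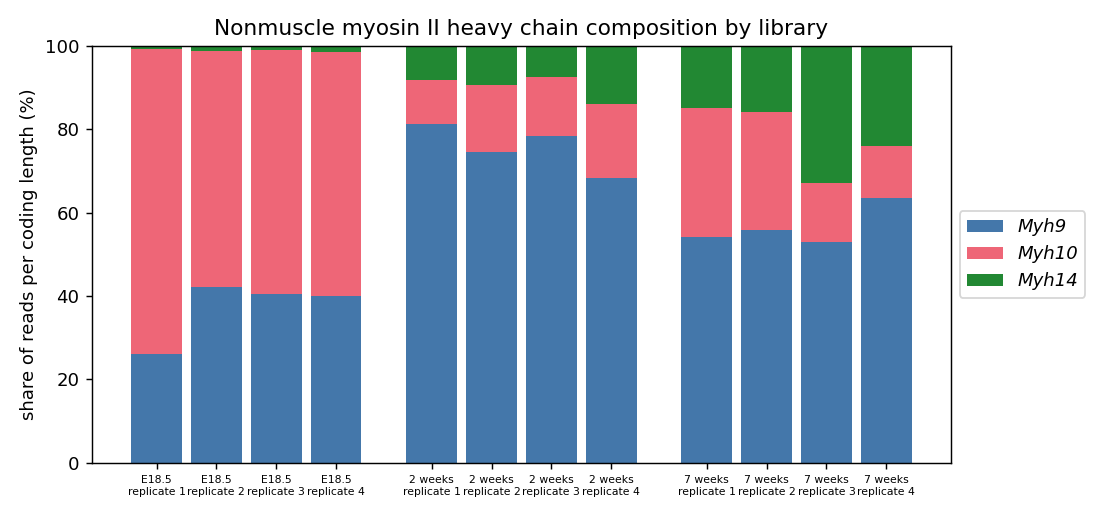
Share (%) of reads per kb of coding length on *Myh9*, *Myh10* and *Myh14* in each of the 12 libraries, as stacked bars that sum to 100. *Myh10* takes 56.5 to 73.1% of the bar at E18.5 and at most 30.8% later, and *Myh14* grows from at most 1.38% to between 14.97 and 33.0% at 7 wks.

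The nonmuscle genes moved in different directions, and their promoters are shown for that reason. The 250 bases before the start site of each gene's entry in the RefSeq promoter table are given 5′ to 3′ on the strand of the gene (RefSeq, GRCm38.p6), with each CCAAT box, read as CCAAT on either strand, in capitals. *Myh9* is at chr15:77842176-77842425, *Myh10* at chr11:68691665-68691914 and *Myh14* at chr7:44670844-44671093. The start site of an entry need not be the outermost one of the gene: 29 bases of the *Myh14* window lie inside the gene's annotated span, as do all 250 of the *Myh6* window, whose motifs are counted below, and 0 of the others.
Myh9: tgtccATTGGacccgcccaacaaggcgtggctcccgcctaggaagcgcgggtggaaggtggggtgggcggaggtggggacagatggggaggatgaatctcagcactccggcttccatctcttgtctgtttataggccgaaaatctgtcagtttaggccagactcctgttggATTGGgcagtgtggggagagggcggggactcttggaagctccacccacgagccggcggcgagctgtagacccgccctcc
Myh10: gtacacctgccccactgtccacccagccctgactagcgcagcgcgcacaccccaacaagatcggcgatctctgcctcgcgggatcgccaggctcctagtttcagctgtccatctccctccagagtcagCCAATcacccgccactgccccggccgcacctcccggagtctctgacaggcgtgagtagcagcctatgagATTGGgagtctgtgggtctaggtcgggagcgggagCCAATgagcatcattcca
Myh14: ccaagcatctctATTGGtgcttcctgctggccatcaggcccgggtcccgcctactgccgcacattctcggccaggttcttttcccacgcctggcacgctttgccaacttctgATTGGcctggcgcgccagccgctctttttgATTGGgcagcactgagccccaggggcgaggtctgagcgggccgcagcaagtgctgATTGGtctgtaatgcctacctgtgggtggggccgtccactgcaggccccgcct
*Myh9* held 2 such boxes, *Myh10* held 3 and *Myh14* held 4, while *Myh6*, *Myh7b* and *Myh13* held 0 in the same window. Of 32851 promoters of the table, 33.8% held at least 1, 10.1% at least 2, 2.79% at least 3 and 0.840% at least 4. The motif was picked after these sequences had been read, so the counts are a description. The boxes are shared by *Myh14*, which rose, and *Myh10*, which fell. Of the other motifs searched on both strands, the TATA box (TATAAA, 12.4% of all promoters) was found in *Myh9* alone. There it read TTTATA, on the opposite strand, with its first base at -123 from the start site. The MCAT motif (CATTCC, 12.6%) was found once in *Myh6* and once in *Myh10*. An E-box (CANNTG, 66.2%) was found at least once in each of the 6 genes. The CArG box (1.47%) and the MEF2 site (2.92%), searched by their usual consensus, were found in 0 of the 6 windows. The table matched 6 of the 7 genes, without *Myh11*.

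*Myh11* encodes the smooth muscle heavy chain. Its TMM CPM was 24.0, 33.5, 38.1 and 34.4 at E18.5, 91.3, 65.2, 83.1 and 105 at 2 wks, and 67.7, 88.2, 58.6 and 81.9 at 7 wks. Later libraries were all above the E18.5 libraries, and the later ages overlapped. From 32.5 ± 6.005 it rose to 86.1 ± 16.5 (SD), which is 1.40 ± 0.19 on the log2 scale (edgeR adjusted p = 2.68e-05), and the change from 2 to 7 wks was -0.22 ± 0.19 (edgeR adjusted p = 0.418). The rise passed under each of the 3 scalings, but its size varied: with total counts it was 0.46 (edgeR adjusted p = 0.0427), and the log2 change from E18.5 to 7 wks turned from 1.19 to -0.09. *Myh11* is read best against the other genes of the vessel wall. Of the 10 genes of the smooth muscle list, 4 rose and 4 fell between E18.5 and 2 wks (median log2 change 0.22), and 1 rose and 3 fell from 2 to 7 wks (median -0.32). *Synpo2*, which encodes a Z-disc and actin-bundling protein that striated muscle expresses too, rose most in the first interval (log2 fold change 1.90), and *Ptger3*, a prostaglandin receptor, fell most (-3.79). *Synpo2* was also the gene that rose from 2 to 7 wks (0.69), while *Acta2*, smooth muscle alpha-actin, fell most (-1.97). The mural cell genes moved more evenly. Of the 8 pericyte genes, 6 rose and 0 fell by 2 wks (median 1.12), led by *Vtn* (3.37), which encodes vitronectin, and 1 rose and 3 fell afterwards (median -0.20), with *Abcc9* (0.57), a potassium channel subunit, highest and *Mcam* (-1.21), an adhesion molecule, lowest. The summed TMM CPM of the pericyte list was 463 to 588 at E18.5, 1258 to 1423 at 2 wks, then 1134 to 1507 at 7 wks, and that of the smooth muscle list 500.3 to 749, 1209 to 1493 and 1249 to 1694. *Synpo2* carried a large part of the second sum. The other 9 genes of that list summed to 288 to 543 at E18.5, 417 to 939 at 2 wks, then 248 to 333 at 7 wks, with means of 386, 644 and 301, so that without *Synpo2* the E18.5 libraries overlapped those of both later ages and the 7 wks mean was below that of E18.5. With total counts the smooth muscle list split into 2 higher and 5 lower, then 0 and 6, and the pericyte list into 4 higher and 2 lower, then 0 and 4. The part of these cells in the rise of *Myh11* was not tested.

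*Myh6* encodes the alpha-cardiac chain. Its TMM CPM was 8.35, 23.4, 8.07 and 10.4 at E18.5, 17.9, 9.86, 10.2 and 6.48 at 2 wks, and 4.25, 9.66, 6.37 and 4.92 at 7 wks. All 3 ages overlapped. The log2 change was -0.18 ± 0.38 by 2 wks (edgeR adjusted p = 0.695) and -0.82 ± 0.39 from 2 to 7 wks (edgeR adjusted p = 0.132). Over the whole span the fall passed at -0.99 (edgeR adjusted p = 0.0327), but without E18.5 replicate 2 it was -0.50 (edgeR adjusted p = 0.182), and it did not pass either without 7 weeks replicate 1, 3 or 4. Under total counts the first change was -1.07 (edgeR adjusted p = 0.0235), and after removal of the GC trend -1.06 (edgeR adjusted p = 0.0150), so that its call depends on the scaling. Reads wholly within sequence shared with another gene cannot be assigned with certainty, and could be added to *Myh6* or lost from it. Of the 100-nt windows of *Myh6*, 11.1% occur in identical form in *Myh7*, the slow beta chain. *Myh7* lies next to it and stood at 144 TMM CPM at E18.5. Per coding length, *Myh6* was 0.0642 to 0.105 of *Myh7* at E18.5, 0.455 to 1.46 at 2 wks, then 0.964 to 1.70 at 7 wks. The ratio rose while *Myh6* itself did not, and *Myh7* fell by 3.23 and then by 1.84 on the log2 scale.

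*Myh7b* encodes a slow-type chain of heart, slow muscle and muscle spindles. Its TMM CPM was 11, 26.5, 13.5 and 13.2 at E18.5, 10.2, 7.00, 7.87 and 6.60 at 2 wks, and 3.47, 5.84, 6.23 and 5.31 at 7 wks. The 3 ages did not overlap and followed each other downwards. *Myh7b* fell by 1.02 ± 0.27 on the log2 scale by 2 wks (edgeR adjusted p = 0.00481) and by 1.62 ± 0.28 by 7 wks (edgeR adjusted p = 0.000136). The step from 2 to 7 wks was -0.60 ± 0.27 (edgeR adjusted p = 0.119; exact permutation p = 0.0286). That step missed the threshold in the fit across all genes, although its libraries did not overlap, as in 33.7% of all genes in that interval. With the GC trend removed the first fall was larger, at -2.29, and the second smaller, at -0.27.

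Both genes were set beside the heart, slow fibre and muscle spindle lists. Of the heart list, 4 of 10 genes were too low to be tested, *Nppa*, *Nppb*, *Myl7* and *Bmp10*, and *Bmp10* was at 0 in every library. Of the 6 tested, 1 rose and 4 fell by 2 wks (median -1.82), *Tnni3* (0.86) and *Tnnt2* (-3.62), both troponin subunits, at the ends, and 0 rose and 5 fell afterwards (median -1.3), *Actc1*, cardiac actin, most (-2.01). The highest level of the 4 untested genes in any library was 0.245 TMM CPM, for *Nppa*. The sum of the heart list did not follow the median: it was 2743 to 4536 TMM CPM at E18.5. At 2 wks it was 9410, 9360, 7133 and 2684 in the order of the replicates, and at 7 wks 702 to 3620. The 9 slow fibre genes, of which *Myh7* is 1, fell with *Myh7b*: 1 rose and 7 fell by 2 wks (median -1.83), with *Myl3* (1.3), a slow light chain, and *Casq2* (-3.28), the slow calsequestrin, at the ends. From 2 to 7 wks 0 rose and 7 fell (median -1.32), led by *Tnnt1* (-2.92). The list sum was 1871 to 2922 TMM CPM at E18.5, 434 to 649 at 2 wks, then 245 to 347 at 7 wks, and its part in the fall of *Myh7b* was not tested. Of the 4 spindle genes, *Egr3*, the transcription factor of spindle fibers, fell in both intervals (-1.92 and -1.32), and *Etv4* (0.45 and -0.16), *Etv5* (-0.34 and -0.22) and *Ntf3* (0.03 and 0.13) did not pass.

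The introns of *Myh6*, *Myh7* and *Myh7b* carry related microRNAs, shown because the levels of their host genes are what the counts report. Mature sequences are from RefSeq (GRCm38.p6), 5′ to 3′, with the seed, bases 2 to 8, in capitals. They lie at chr14:54949072-54949093 on the minus strand, chr14:54975710-54975731 on the minus strand and chr2:155622893-155622913 on the plus strand.
miR-208a-3p, in Myh6: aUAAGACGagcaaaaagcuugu
miR-208b-3p, in Myh7: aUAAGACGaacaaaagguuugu
miR-499-5p, in Myh7b: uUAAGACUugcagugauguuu
The *Myh6* and *Myh7* microRNAs share all 7 seed bases and 19 of 22 bases in all, and each shares 6 of 7 seed bases with that of *Myh7b*. These libraries were made from mRNA and do not measure mature microRNAs. The rows of the count table for *Mir499* and *Mir208a* held at most 1 read in any library, and that of *Mir208b* held 5 to 7 reads at E18.5 and 0 later.

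*Myh13* encodes the superfast chain of eye and laryngeal muscles and lies just downstream of *Myh8*, the perinatal chain, in the skeletal cluster on chromosome 11. Its TMM CPM was 5.41, 6.20, 2.10 and 5.71 at E18.5, 27.4, 20.5, 17.6 and 10.2 at 2 wks, and 10.4, 19.4, 13.5 and 9.19 at 7 wks. Every later library was above every E18.5 library. Scaled to total counts alone the ages overlapped, at 3.72 to 10.2 CPM, 8.30 to 25.9 and 6.35 to 13.4 in order of age. *Myh13* rose 3.90-fold by 2 wks (log2 fold change 1.96 ± 0.36, edgeR adjusted p = 0.000318), and its change to 7 wks was -0.53 ± 0.35 (edgeR adjusted p = 0.281). With total counts the log2 change over the whole span was 0.17 (edgeR adjusted p = 0.666), against 1.43 with TMM. Of its 100-nt windows, 3.42% occur in identical form in another *Myh* gene, 2.03% in *Myh8*. Its reads came to 0.0319 to 0.0753% of those on the 6 main skeletal forms at E18.5, 0.0178 to 0.0560% at 2 wks, then 0.0135 to 0.0298% at 7 wks, ranges that overlap between neighbouring ages. Whether some of these reads come from the skeletal forms was not tested.

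**Figure D3:**
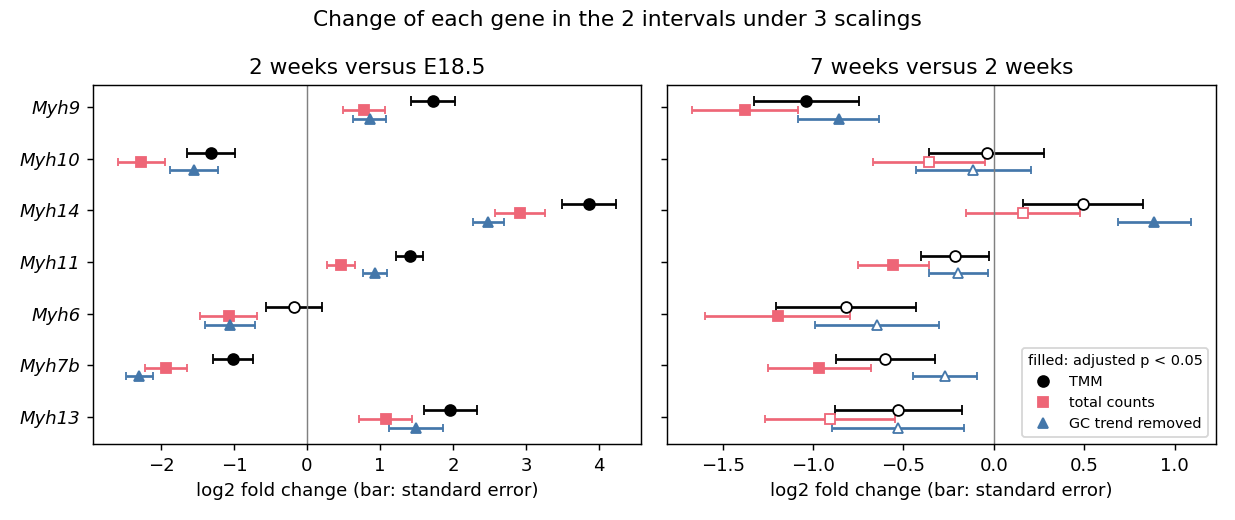
Log2 fold change with SE of the 7 genes from E18.5 to 2 wks (left) and from 2 to 7 wks (right) under TMM, total counts and TMM with the GC trend removed; filled symbols passed the edgeR test. The directions of the 6 genes called from E18.5 to 2 wks are the same under the 3 scalings, and *Myh6* is open under TMM in that interval but filled under the other 2 scalings.

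Per kb of merged exons, the order of levels at E18.5 was *Myh10* (8.06 ± 1.52 TMM CPM per kb), *Myh11* (4.28 ± 0.79), *Myh9*, *Myh7b*, *Myh6*, *Myh13* and *Myh14* (0.207 ± 0.099). Only the gaps below *Myh10* and below *Myh13* separated neighbours whose libraries did not overlap. At 2 wks it was *Myh9* (12.9 ± 3.27), *Myh11* (11.3 ± 2.17), *Myh10*, *Myh13*, *Myh14*, *Myh7b* and *Myh6* (1.11 ± 0.49), with gaps below *Myh11* and *Myh14*. At 7 wks it was *Myh11* (9.75 ± 1.77), *Myh9* (6.28 ± 1.34), *Myh14*, *Myh10*, *Myh13*, *Myh7b* and *Myh6* (0.632 ± 0.241), with gaps below *Myh11* and *Myh13*. *Myh14* thus moved up from the last place and *Myh10* down from the first, and at 7 wks *Myh14* stood above *Myh10*, with libraries that overlapped. The choice of length matters for *Myh9*, whose merged exons (14883 nt) are far longer than its coding part (5943 nt). Per coding length, *Myh9* was second at E18.5 (9.75 ± 4.03) and first at both later ages (32.3 ± 8.19 and 15.7 ± 3.36), overlapping *Myh11* at 7 wks, and *Myh10* (6.03 ± 3.02) and *Myh14* (5.87 ± 1.60) overlapped at 7 wks.

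**Figure D4:**
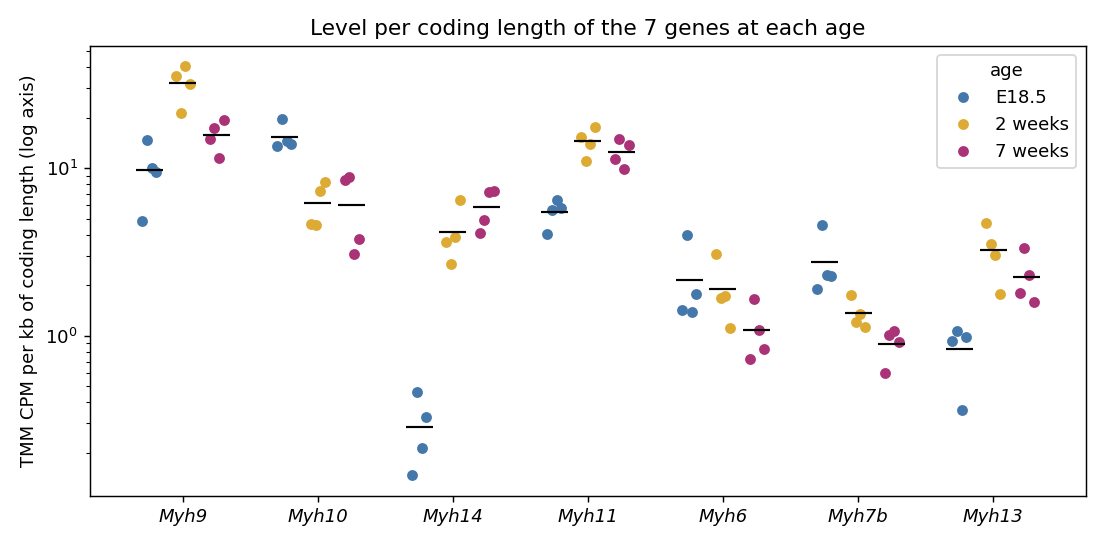
TMM CPM per kb of coding length (log axis) of the 7 genes at each age; points are libraries and lines are means (n = 4). *Myh9* and *Myh11* lead at 2 and 7 wks, and *Myh14* is lowest at E18.5 and overlaps *Myh10* at 7 wks.

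Together the 7 genes took 0.0260 to 0.0493% of all counted reads at E18.5, 0.0251 to 0.0387% at 2 wks, then 0.0143 to 0.0213% at 7 wks. Of the reads on all 14 *Myh* genes of the table they took 2.13 to 3.09%, 0.614 to 0.829% and 0.324 to 0.472%. By 2 wks the denominator grew: the 6 main skeletal forms summed to 6584 to 9978 TMM CPM at E18.5 and 44097 to 59333 at 2 wks. Of them, 3 rose (*Myh4* most, log2 fold change 10.17) and 3 fell (*Myh8* most, -7.57). From 2 to 7 wks 0 rose and 3 fell (*Myh7* most), and the sum at 7 wks, 57704 to 77119, overlapped that at 2 wks. In that interval the share of the 7 genes among all counted reads fell with no overlap.

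The partners and regulators of nonmuscle myosin II were followed in a list of 29 genes, of which 28 were tested. Between E18.5 and 2 wks, 11 rose and 6 fell (median log2 change 0.13). *Myo18a*, a myosin-like partner of nonmuscle filaments, rose most (2.07), and *Rock1*, a kinase that activates them, fell most (-0.97). From 2 to 7 wks 3 rose and 12 fell (median -0.42), with *Ppp1cb*, the catalytic subunit of myosin phosphatase, rising most (1.15) and *Cit*, citron kinase of the cleavage furrow, falling most (-1.95). With total counts the split was 1 higher and 17 lower in the first interval, and 2 higher and 17 lower in the second, so the rises of this list depend on the scaling. With a library left out, 3 to 6 fell in the first interval (3 without 2 weeks replicate 4) and 7 to 14 in the second (7 without 2 weeks replicate 1 or 7 weeks replicate 2). The 15 genes of cytokinesis and proliferation went down throughout: 14 fell by 2 wks (median -1.80), *Top2a*, a topoisomerase of dividing cells, most (-2.57), and 15 fell from 2 to 7 wks (median -3.25), *Cdk1*, the mitotic kinase, most (-4.13). Their sum was 623 to 865 TMM CPM at E18.5, 147 to 275 at 2 wks, then 14.6 to 31.3 at 7 wks. *Myh10* fell with this list in the first interval, and *Myh9* rose while it fell. Of 9 endothelial genes, 7 rose and 0 fell by 2 wks (median 1.2), led by *Tie1* (2.31), an endothelial receptor, and from 2 to 7 wks 1 rose, *Flt1* (0.85), a receptor of VEGF, and 3 fell, *Cldn5*, a tight junction protein, most (-1.44; median -0.53). With total counts 4 were higher and 1 lower, then 1 and 6. The sum of the list was 410.1 to 593 TMM CPM at E18.5, 1043 to 1236 at 2 wks, then 766 to 1078 at 7 wks. The part of these lists in the changes of *Myh9* and *Myh10* was not tested.

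**Figure D5:**
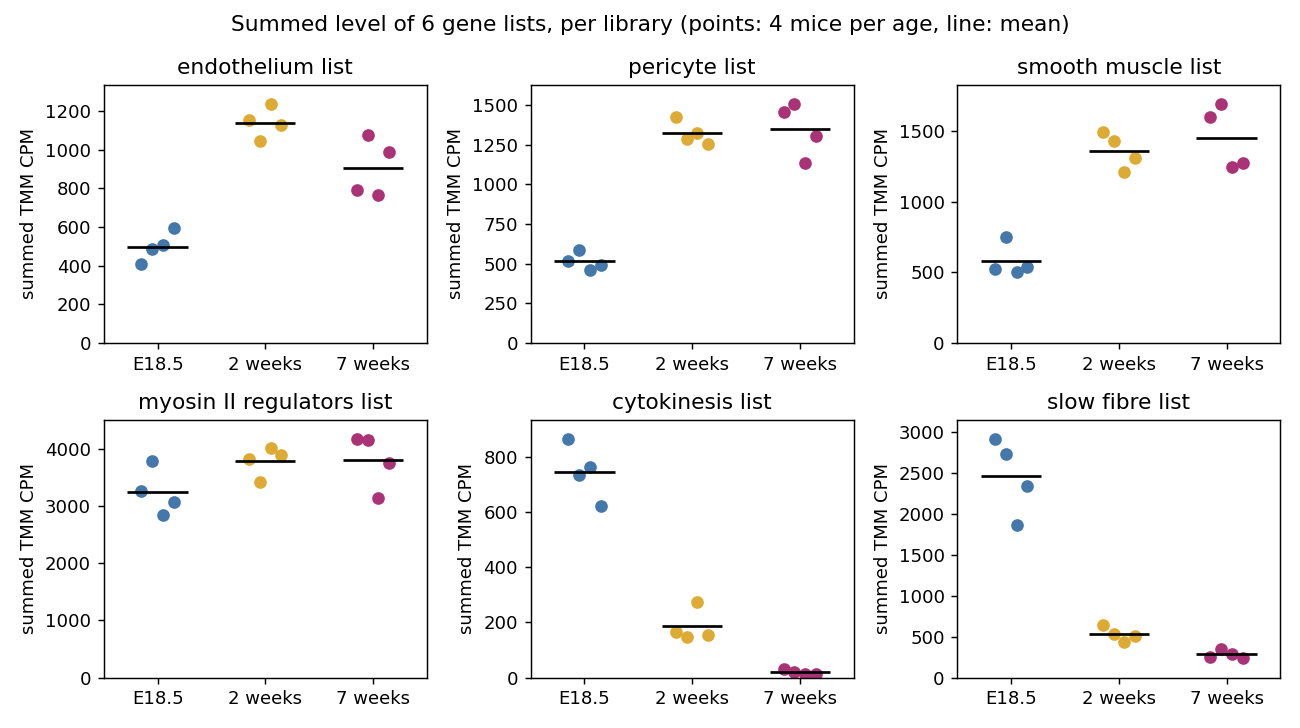
Summed TMM CPM (linear axes from 0) of 6 gene lists in each of the 12 libraries by age; points are libraries and lines are means (n = 4). The endothelium list has its highest mean at 2 wks (1043 to 1236), with libraries that overlap those at 7 wks (766 to 1078). The pericyte and smooth muscle lists are above E18.5 at both later ages (the latter not so without *Synpo2*), and the cytokinesis and slow fibre lists fall at each age.

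Other cell types that hold nonmuscle or smooth muscle chains were measured by marker lists as well, with sums in TMM CPM. Of 8 fibroblast genes, 1 rose (*Thy1*, 2.01) and 4 fell (*Pdgfra* most, -2.0) by 2 wks and 0 rose and 4 fell (*Col1a1* most, -2.20) afterwards, and the sum went from 6109 to 12471 at E18.5 to 4547 to 6275 and 1017 to 4177. Of 8 macrophage genes, 1 rose (*C1qa*, 1.29) and 3 fell (*Adgre1* most, -2.40), then 0 rose and 5 fell (*C1qa* most, -1.65), with sums of 172 to 212, 80.4 to 114 and 23.5 to 74.4. Of 5 platelet genes tested, whose cells are rich in IIA, 0 rose and 3 fell (*Gp1ba* most), then 0 rose and 2 fell (*Pf4* most, -1.91), and the sum went from 38.7 to 58.3 down to 10.2 to 15.2 and 4.24 to 7.78. The fibroblast, macrophage and platelet sums did not rise with *Myh9* by 2 wks, though *Thy1* and *C1qa* did. The part of these cells in the changes of *Myh9* was not tested. Of 7 red blood cell genes 0 rose and 2 fell, then 0 rose and 5 fell. Of 6 satellite cell genes 0 rose and 3 fell (*Vcam1* most, -1.83), then 0 rose and 1 fell (*Pax7*, -0.79). Of 6 adipocyte genes 0 rose and 5 fell, then 0 passed in either direction, and their sum differed widely among the E18.5 libraries (179 to 2700.1). Of 7 epidermal genes tested 0 rose and 5 fell, then 2 rose and 0 fell, at sums of 2.32 to 32.0, 3.98 to 6.76 and 2.35 to 11.8. Of 6 cartilage and bone genes tested 1 rose (*Bglap*) and 5 fell, then 0 rose and 4 fell. E18.5 replicate 2 had the highest E18.5 sum of 13 of the 18 lists, with 12471 for fibroblast genes. Without it, the counts of the smooth muscle, pericyte, endothelial, fibroblast and heart lists that passed in these intervals did not change in number.

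Outside the family, the genes whose pattern over the 12 libraries was nearest were named for each member by the root mean square difference of centred log2 TMM CPM among 11848 genes, as a description. *Myh9* was nearest to *Sh3tc2* (0.197), *Tmc8* (0.213) and *Dot1l* (0.223). *Myh10* was nearest to *Armcx4* (0.227), *Chst3* (0.246) and *Zfp518b* (0.273). *Myh14* was nearest to *Ptp4a3* (0.256), *Tbx1* (0.263) and *Aldoa* (0.266), the last being the muscle aldolase. Among the others, *Myh11* had the closest neighbour of all, *Ano8* (0.163), followed by *Pik3r6* (0.165) and *Mark2* (0.206). *Myh7b* was nearest to *Prmt2* (0.173), *Erbb2* (0.185) and *Fgfrl1* (0.242). *Myh6* was nearest to *Myl9* (0.297), the regulatory light chain of smooth muscle and nonmuscle myosin, then to *Plekha4* (0.356) and *Cspg4* (0.370), a pericyte marker. *Myh13* had the loosest neighbours, *Apobec2* (0.349), *Ufsp1* (0.367) and *Ache* (0.410), the last being the acetylcholinesterase of the neuromuscular junction.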

How the data were processed

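The count table holds raw read counts per Ensembl gene in 12 libraries, deposited by the authors with no normalization. The submitters' processing notes name bcl2fastq 2.17.1.14, cutadapt 1.10, STAR 2.5.3a, HTSeq 0.6.1p1 and the build mm10, whereas the methods name GRCm39; the annotation and the strand setting of the counting are not given in the sources used here. Without strand, antisense transcripts that overlap *Myh6*, *Myh7b*, *Myh10* and *Myh14* by 60 to 284 exon bases could alter their counts, by adding or removing reads. The same holds for *Myh7*, of which the antisense *Mhrt* overlaps 2462 exon bases (24.6%). All columns were used. Of 55450 genes, 51477 had an identifier in GENCODE vM39, which gave exon lengths and GC content, and 3973 did not (0.0394% of counts). After TMM and filterByExpr, which left 19276 genes, edgeR 4.0.16 (R 4.3.3) fitted 1 quasi-likelihood model with age as its sole term, and Benjamini-Hochberg adjustment ran over all genes tested (threshold 0.05). Two-sided exact permutation tests used the 70 regroupings of 4 libraries against 4. The alternatives were total counts, TMM without the 20 most abundant and the mitochondrial genes, DESeq2 1.42.0, other filters, the replicate number as a block, a GC correction, only the libraries compared, and each library left out. Lengths other than merged exons, nonmuscle shares per merged exons, the smooth muscle sum without *Synpo2*, and list counts with total counts or a library left out, were added after the data had been seen. The fit was tested on simulated data in which few genes changed, as many up as down. Such data cannot judge the choice of scaling. Libraries of the same age all differed beyond counting noise (18 pairs, chi-square over its degrees of freedom between 31.2 and 524.0), and none was merged. The 7 genes and the 18 lists were chosen with earlier results of these data known. The result of 1 of these lists is not reported here. From each list the genes with the largest passing rise and fall per interval are named, as are other genes of lists under 10 genes, and for each of the 7 genes the 3 nearest patterns.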

Additional observations from a re-analysis of the deposited data

Results flagged for a closer look

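Among the 21 groups of 4 libraries (7 genes at 3 ages), a library lay far from the others of its group in 2, beside 1.05 that chance gives. *Myh10* in E18.5 replicate 2 was at 119 TMM CPM, with the other E18.5 libraries between 82.0 and 87.2. On the log2 scale, on which the gaps were measured, its gap took 0.834 of the range of the group. Without that library the fall to 2 wks kept its direction and passed. *Myh13* in E18.5 replicate 3 was at 2.10 TMM CPM, with the others between 5.41 and 6.20, a gap of 0.873 of the range on the log2 scale. In that library the 7-gene red blood cell list was highest of the E18.5 libraries (1026 TMM CPM) and the slow fibre list lowest (1871). The 6 main skeletal forms (6584) and the heart list (2743) were lowest there too. So were the myosin II regulator (2842), pericyte (463), smooth muscle (500.3), spindle (32.1) and platelet (38.7) lists. The part of these lists was not tested.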

How the results depend on the processing

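Of the 28 log2 changes of the 7 genes, all kept direction and call when the 20 most abundant and the mitochondrial genes were left out, and 27 did under DESeq2, without a filter, and with at least 10 counts in every library, the exception being the rise of *Myh9* from E18.5 to 7 wks. Under total counts 20 of the 28 kept direction and call. The genes called among the 7 went from 1 to 4 between 2 and 7 wks and from 7 to 4 between E18.5 and 7 wks. *Myh9* (-0.59) and *Myh11* (-0.094) turned negative over the whole span. The split of all genes (higher and lower) went from 6074 and 6594 to 2550 and 11923 in the first interval. It went from 2609 and 2687 to 948 and 5392 in the second, and from 6610 and 7145 to 2291 and 13297 over the whole span. For the difference between the intervals it went from 3235 and 4163 to 6104 and 2326. Under total counts the median change of all genes was -1.02, -0.38 and -1.37 in the 3 spans, in place of -0.09, -0.03 and -0.09. With the GC trend removed, 2 of the 7 were called from 2 to 7 wks, as with only the 8 libraries compared, and the difference between the intervals of *Myh6* became 0.41. Leaving out libraries gave 6 to 6, 0 to 2 and 5 to 7 of the 7 genes in the 3 comparisons (0 without 2 weeks replicate 3, 2 without E18.5 replicate 2) and 4 to 5 for the difference. For all genes it gave 11810 to 13199, 3472 to 6145 (3472 without 2 weeks replicate 1), 13244 to 13928 and 5273 to 8297. It turned the first change of *Myh6* to between -0.48 and 0.31 (0.31 without E18.5 replicate 2, 0.019 without 2 weeks replicate 4) and the second of *Myh10* to between -0.28 and 0.18 (0.049 and 0.13 without 2 weeks replicates 3 and 4, 0.18 and 0.13 without 7 weeks replicates 3 and 4), none of which passed. The cause of these changes was not tested.

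The replicate numbers did not pair the libraries: deviations of same-numbered libraries correlated at -0.283 to 0.514, above 0.1 in 5 of 12 pairs. With the replicate number as a block, 6, 1, 6 and 4 of the 7 genes were called, and *Myh9* over the whole span was 0.73 (edgeR adjusted p = 0.0533); no other call among the 7 changed. With counts of 130 or more per gene and library, depth limits these values little, and the spread between libraries limits them more.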

Other observations

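*Myh15*, a class II heavy chain gene outside the 7, was counted at 4 to 47 reads per library over the 3 ages, too few to describe a course.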
